A study of Caenorhabditis elegans with 2 samples.

Results

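The miRNAs cel-miR-2, cel-miR-43, cel-miR-250 and cel-miR-797 of the nematode Caenorhabditis elegans form a family by their seed, the bases near the 5′ end of a mature miRNA that choose its targets. The shared seed is background knowledge and was not checked here against sequence. Every mature locus that the deposited table names after one of these 4 hairpins was taken, with both arms, whatever its reads. This gave 8 of the 375 mature miRNA loci in the table. Small RNA came from whole worms of the wild-type strain N2, with an age given as Day 1, that had received enoxacin or vehicle, with 1 library per group. Enoxacin, a fluoroquinolone antibiotic, is known to promote miRNA processing in mammalian cells. Per the series' design text the worms were from 3 separate experiments; the sources used here do not say whether these were pooled or which dose was used.

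A miRNA is cut from a hairpin, and one arm of the hairpin usually becomes the abundant mature strand while the other, minor arm is mostly degraded. miRNAs that share a seed can repress overlapping sets of mRNAs, so the summed level of a seed family matters beside the level of each member. The miR-2 family is conserved among invertebrates, and in Drosophila its members are known to repress pro-apoptotic genes such as reaper, grim and sickle. Several C. elegans miRNA hairpins lie side by side and are cut from a shared primary transcript, while others lie within introns of protein-coding genes.

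The vehicle library held 10698845 reads by the authors' total and the enoxacin library 8787665, of which 400555 and 332407 fell on miRNA loci. Levels are in RPM, which scales reads to that total, so that a single read stood for 0.0935 RPM with vehicle and 0.114 RPM with enoxacin. As each group was 1 library, no group difference was testable. The exact 95% interval beside each enoxacin to vehicle ratio holds counting error alone, without any spread between cultures. The comparison took the 152 of 375 loci whose reads summed to 20 or more, and called one higher or lower if it passed 1.5-fold with an interval that excluded 1. Of 14 miRNAs used as markers of muscle, neurons, intestine, embryos, epidermis and glia, and late development, 13 had reads in both libraries. The neuronal lsy-6 had no read in either.

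Members were taken by hairpin name, so the minor arms are counted among them although their 5′ ends differ from those of the arms that define the family. The family was present mainly as the 3p arm of mir-2, and 3 of its 4 hairpins gave an abundant mature strand. Summed over all arms the family was lower in the enoxacin library, at 690 RPM (6062 reads) against 837 RPM (8950 reads) with vehicle. With the most abundant arm of each hairpin alone the ratio was 0.826 (0.799 to 0.854). The 3p arms of mir-2, mir-43 and mir-250 each had a ratio below 1 whose counting interval excluded 1, and none of these reached 1.5-fold. miR-797 was rare and had a ratio above 1 with an interval that included 1.

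miR-2-3p, the most abundant member, was at 617 RPM (6601 reads) with vehicle and at 516 RPM (4537 reads) with enoxacin. Its ratio was 0.837 (0.806 to 0.869), 1.195-fold lower. It ranked 12 of 375 loci by reads in vehicle and 17 in enoxacin. The 23-nt mature miRNA occupies bases 9372775 to 9372797 of chromosome I, minus strand (ce10). The mir-2 hairpin lies in WBcel235 within an intron of ppfr-1, on the same strand, a gene that encodes a regulatory subunit of protein phosphatase 4. The minor arm miR-2-5p had 2 reads in each library, a ratio of 1.22 with an interval from 0.0882 to 16.8, so no direction could be read from it.

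miR-43-3p was at 100.2 RPM (1072 reads) with vehicle and at 74.2 RPM (652 reads) with enoxacin. Its ratio of 0.740 (0.671 to 0.817) was the lowest among the abundant arms of the family. It occupies bases 11889907 to 11889929 of chromosome II, plus strand (ce10). The minor arm miR-43-5p (11889867 to 11889890) was at 2.90 RPM (31 reads) with vehicle and at 1.252 RPM (11 reads) with enoxacin. Its ratio of 0.432 (0.196 to 0.883) made it the 1 locus of the 4 hairpins called lower. As the opposite arm of the hairpin it has another 5′ end and is a member by name, not by the seed of the family. In WBcel235 the mir-43 hairpin overlaps an exon of the non-coding RNA gene ZK930.12 on the opposite strand. The sources used here do not say whether reads were counted by strand. The overlapping loci miR-356a and miR-356b-3p, on opposite strands, had equal counts, 5 with vehicle and 4 with enoxacin. The same held for miR-5592-3p (plus strand) and miR-5592-5p (minus strand), at 72 and 102 each. Where the other mir-5592 arms overlap, counts were close, at 75 and 84 against 83 and 89. Counting without regard to strand would give such values but was not tested. Reads of ZK930.12 therefore cannot be told apart from those of mir-43.

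miR-250-3p was at 114 RPM (1216 reads) with vehicle and at 95.2 RPM (837 reads) with enoxacin. Its ratio of 0.838 (0.766 to 0.916) was close to that of miR-2-3p. It occupies bases 11769919 to 11769938 of chromosome V, minus strand (ce10), a locus of 20 nt. The minor arm miR-250-5p (11769959 to 11769980) had 16 and 10 reads, a ratio of 0.761 with an interval from 0.309 to 1.78. In WBcel235 the mir-250 hairpin overlaps no other annotated gene.

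miR-797 was found as its 5p arm. miR-797-5p was at 1.12 RPM (12 reads) with vehicle and at 1.48 RPM (13 reads) with enoxacin, a ratio of 1.32 with an interval from 0.555 to 3.16. miR-797-3p was at 0 reads in both, for which the upper limits are 0.280 RPM with vehicle and 0.341 RPM with enoxacin. The 25-nt miR-797-5p occupies bases 4757093 to 4757117 of chromosome X, plus strand (ce10), and miR-797-3p bases 4757134 to 4757155. In WBcel235 the mir-797 hairpin overlaps no other annotated gene.

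**Figure D1:**
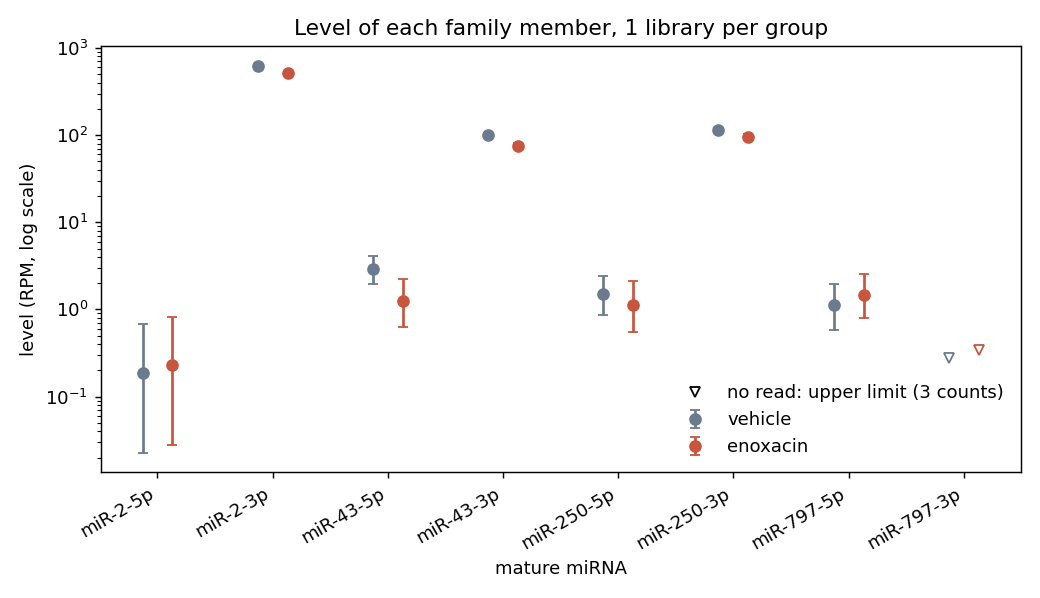
Level of each of the 8 family members in RPM (log axis) in the vehicle and enoxacin libraries. Points are the measured levels, bars are exact Poisson 95% intervals that cover counting error only, and open triangles are the upper limit that a count of 0 allows. miR-2-3p lies near 600 RPM in vehicle, miR-43-3p and miR-250-3p near 100 RPM, and every other arm below 3 RPM.

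The order of the levels was the same in both libraries for the abundant arms, with miR-2-3p first, then miR-250-3p, then miR-43-3p. In vehicle, miR-250-3p at 114 RPM (exact Poisson 95% interval 107 to 120) and miR-43-3p at 100.2 RPM (94.3 to 106) were neighbours in this order whose intervals did not overlap. In enoxacin the same miRNAs were at 95.2 RPM (88.9 to 102) and 74.2 RPM (68.6 to 80.1). Below them miR-43-5p, miR-250-5p and miR-797-5p had overlapping intervals in enoxacin and could not be ordered. In vehicle miR-43-5p, at 2.90 RPM (1.97 to 4.11), lay above miR-797-5p, at 1.12 RPM (0.580 to 1.96), while the interval of miR-250-5p overlapped both. miR-2-5p and miR-797-3p had the fewest reads. The interval of miR-2-5p reached 0.675 RPM in vehicle and 0.822 RPM in enoxacin and overlapped that of miR-797-5p in both libraries. In enoxacin it also overlapped those of miR-43-5p and miR-250-5p. These are levels per mature locus of 20 to 25 nt, with no correction for length.

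The mir-2 hairpin held 73.8% of the family's reads with vehicle (72.9 to 74.7%, exact binomial 95%) and 74.9% with enoxacin (73.8 to 76.0%). mir-250 held 13.8% (13.1 to 14.5%) and 13.97% (13.1 to 14.9%). mir-43 held 12.3% (11.6 to 13.02%) in vehicle and 10.9% (10.2 to 11.7%) in enoxacin, and mir-797 held 0.134% and 0.214%. The makeup of the family was thus nearly the same in both libraries. The share of mir-43 differed by more than counting error: its odds against the other 3 hairpins had an enoxacin to vehicle ratio of 0.874 (0.787 to 0.969), while the intervals of the other 3 hairpins included 1. These shares do not depend on how the libraries are scaled. They do depend on one another, and their intervals are not adjusted for the number of hairpins.

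The same comparison was made for each of the 6 pairs among the most abundant arms of the 4 hairpins. It uses largely the same reads as the shares and is no separate evidence. The ratio of miR-43-3p to miR-2-3p was 0.162 in vehicle and 0.144 in enoxacin, a relative change of 0.885 (0.796 to 0.983). This was the 1 pair whose interval excluded 1, and the intervals are not adjusted for the number of pairs. miR-250-3p and miR-2-3p kept nearly the same proportion, 0.1842 in vehicle and 0.1845 in enoxacin, with a relative change of 1.00 (0.909 to 1.10). miR-250-3p against miR-43-3p gave 1.13 (0.990 to 1.29). The 3 pairs with miR-797-5p gave 1.57 to 1.78, each with an interval from below 0.75 to above 3.7, so a difference between miR-797-5p and the other members was not detectable at this depth.

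Both arms of mir-43 had ratios below 1, and the arms could not be told apart in this. The 5p arm made up 2.81% of mir-43 reads with vehicle (1.92 to 3.97%) and 1.66% with enoxacin (0.831 to 2.95%), and the relative change of the 5p to 3p proportion was 0.583 (0.263 to 1.203). In mir-250 the 5p arm made up 1.30% in vehicle (0.744 to 2.10%) and 1.18% in enoxacin (0.568 to 2.16%). In mir-2 it made up 0.0303% (0.00367 to 0.109%) and 0.0441% (0.00534 to 0.159%). In mir-797 all 12 reads in vehicle and all 13 in enoxacin came from the 5p arm, with lower limits of 73.5% and 75.3%. Over all hairpins with both arms compared, the arm proportion changed with an interval excluding 1 in 11 of 49 (22.4%), and in neither of the 2 family hairpins among them.

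The family hairpins thus differed in how strictly one arm was kept. Among the 47 hairpins with both arms listed and at least 1000 reads, the minor arm took a median of 0.390% of reads over both libraries. mir-2, at 0.0359%, had the third lowest share of its minor arm. mir-43, at 2.38%, ranked 45 from the lowest, and mir-250, at 1.251%, ranked 35.

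**Figure D2:**
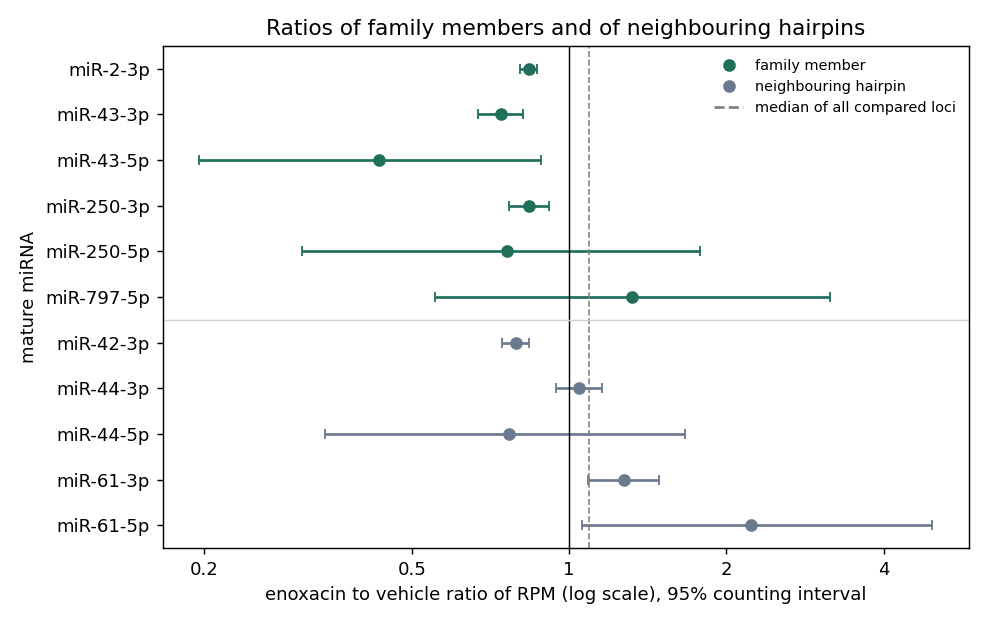
Enoxacin to vehicle ratio of RPM (log axis) for the 6 compared family members and for 5 arms of the hairpins that lie beside mir-43 and mir-250. Bars are exact 95% counting intervals, the solid line is a ratio of 1 and the dashed line is the median ratio of all 152 compared loci, 1.09. The 3p arms of mir-2, mir-43 and mir-250 lie left of both lines, as does miR-42-3p, whereas miR-61-3p lies right of 1.

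Enough reads to compare (20 or more) were found for 6 of the 8 members, and miR-2-5p and miR-797-3p did not. By the criterion 1 of the 6 was lower (miR-43-5p), none was higher and 5 were neither. Over all 152 compared loci, 7.89% were called lower and 13.2% were called higher. At any fold, the interval lay below 1 for 4 of the 6 members, the 3p arms of mir-2, mir-43 and mir-250 and the 5p arm of mir-43, against 17.1% of the compared loci. It lay above 1 for none of the 6, against 32.2% of all compared loci. An interval can exclude 1 at a small fold only where reads are many. Among the 47 loci with at least 1000 reads it lay below 1 for 31.9%, and the 3 family members in that group are among these.

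The ratio was below 1 for 5 of the 6 compared members, against 36.8% of the compared loci. The median ratio of the 6 was 0.799, against 1.09 over all compared loci, whose quartiles were 0.884 and 1.35. These 6 include the minor arms miR-43-5p (0.432) and miR-250-5p (0.761), which are members by name and not by seed. The most abundant arms were at 0.740 for miR-43-3p, 0.837 for miR-2-3p, 0.838 for miR-250-3p and 1.32 for miR-797-5p. Among the 47 loci with at least 1000 reads, whose median ratio was 1.07, miR-43-3p had the third lowest ratio, miR-2-3p the seventh lowest and miR-250-3p the eighth lowest. The ratio of the summed family was 0.825 (0.798 to 0.852), while all miRNA loci outside the family together had a ratio of 1.01 (1.01 to 1.02). The family took 2.23% of miRNA reads with vehicle (2.19 to 2.28%) and 1.82% with enoxacin (1.78 to 1.87%). Without mir-2, which dominates the sum, the remaining 3 hairpins had a ratio of 0.790 (0.740 to 0.843). The 4 minor arms counted 49 reads with vehicle and 23 with enoxacin together, a ratio of 0.571 (0.332 to 0.956). Of these reads miR-43-5p gave 31 with vehicle and 11 with enoxacin.

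The marker miRNAs of tissues and stages also differed between the libraries, and not in 1 direction. The intestinal miR-60-3p had a ratio of 2.26 (2.02 to 2.53) and let-7-5p, a marker of late development, one of 1.48 (1.37 to 1.601). Of the 8 embryonic 3p arms from mir-35 to mir-42, 4 had an interval below 1 and 4 above 1, with ratios from 0.790 to 1.32 and a summed ratio of 0.946 (0.934 to 0.957). The muscle miR-1-3p was at 0.902 (0.862 to 0.945), the neuronal miR-124-3p at 0.847 (0.666 to 1.07) and the epidermal and glial miR-228-5p at 1.01 (0.928 to 1.09). Fewer cells of a type and less miRNA per cell cannot be told apart in whole worms, and the part of these shifts in the family's ratio was not tested.

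Median-of-ratios scaling, which sets the typical miRNA to no change, moved all log2 ratios by -0.15. Relative to the typical miRNA the abundant members were therefore lower than their ratios to the library totals show. The log2 ratio of miR-2-3p was -0.26 on library totals and -0.40 under that scaling, and that of miR-43-3p was -0.43 and -0.58. All 4 other scalings moved every log2 ratio down, by -0.15 to -0.00083, so a member already below 0 could not change sign under them. miR-797-5p, above 0 at 0.39 on library totals, was at 0.25 under median-of-ratios scaling, the largest shift.

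**Figure D3:**
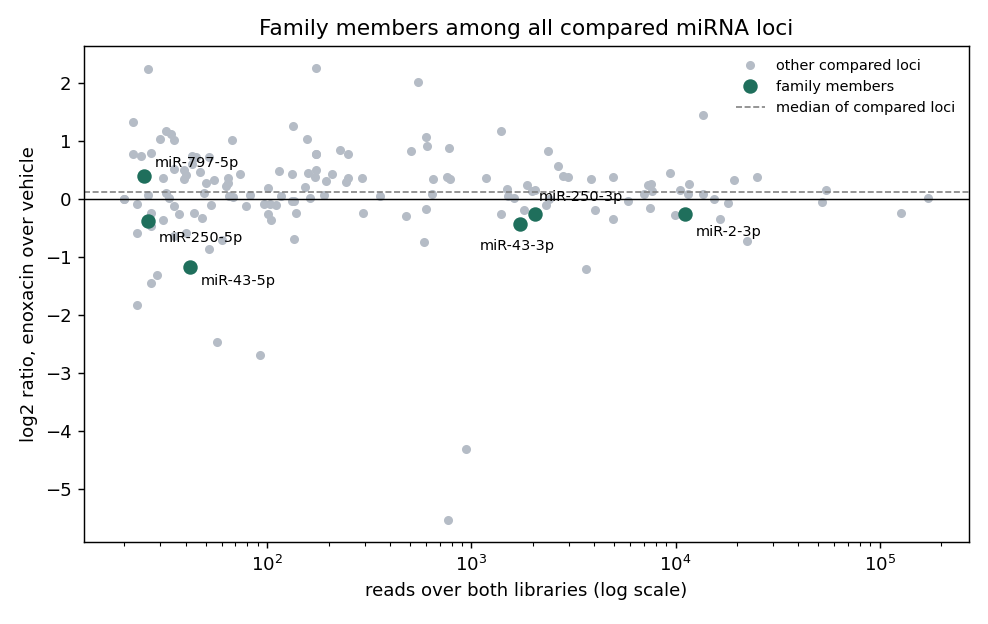
Log2 ratio of enoxacin over vehicle (pseudocount of 0.5 reads) against reads over both libraries (log axis) for the 152 compared loci. Family members are the large green points and the dashed line is the median of all compared loci. The 3 abundant members lie below the line among loci of similar read number, within the range that other loci also take.

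The miRNAs with the most similar levels were found by distance in log2 RPM over the 2 libraries, which measures level and ratio together. Nearest to miR-2-3p were miR-37-3p, with 5943 and 4024 reads (ratio 0.824, 0.792 to 0.858), and miR-39-3p, with 6153 and 5417 reads (1.07). Both belong to the mir-35 family, which is known from embryos. Nearest to miR-250-3p were miR-34-3p, with 1055 and 765 reads (0.883, 0.803 to 0.970), and miR-73-3p, with a ratio of 1.11. miR-34-3p was also nearest to miR-43-3p, followed by miR-45-3p, at 1.01. Likeness over 2 libraries is weak. Of these 5 miRNAs 2 had an interval below 1, miR-39-3p (1.03 to 1.11) and miR-73-3p (1.01 to 1.21) had one above 1, and that of miR-45-3p (0.918 to 1.12) included 1.

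Of the 4 family hairpins, 3 lie beside a hairpin of another seed family, that of mir-44, mir-45, mir-61 and mir-247, on the same strand. On chromosome II, mir-43 lies between mir-42 and mir-44, with 38 nt from the last mature base of mir-42 to the first of mir-43 and 45 nt from mir-43 to mir-44. On chromosome V, mir-61 lies 77 nt upstream of mir-250, and on chromosome X, mir-247 lies 70 nt upstream of mir-797. The position of mir-247 was noticed after the values were seen. Hairpins this close may be cut from 1 primary transcript, and a comparison between them does not depend on the scaling of the libraries.

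In both well-covered cases the family member was lower relative to its mir-44 family neighbour in enoxacin. miR-44-3p was at 76.0 RPM (813 reads) with vehicle and at 79.4 RPM (698 reads) with enoxacin, a ratio of 1.05 (0.943 to 1.16). For each read of miR-44-3p there were 1.32 of miR-43-3p in vehicle and 0.934 in enoxacin, a relative change of 0.708 (0.614 to 0.817). By the reads assigned to the mir-44 locus alone, miR-43-3p was the more abundant of the pair in vehicle and the less abundant in enoxacin. The mature sequence of miR-44 is also that of miR-45, so reads of miR-44-3p may come from mir-45 on the same chromosome, where miR-45-3p had 883 and 735 reads (1.01, 0.918 to 1.12). The order of miR-43-3p and miR-44-3p therefore describes loci as counted and is not established for the shared mature sequence.

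miR-61-3p, which is known to act downstream of the Notch receptor LIN-12 in vulval precursor cells, was at 29.5 RPM (316 reads) with vehicle and at 37.6 RPM (330 reads) with enoxacin. Its ratio was 1.27 (1.09 to 1.49), with an interval that included 1 under median-of-ratios and TMM scaling. There were 3.85 reads of miR-250-3p for each read of miR-61-3p in vehicle and 2.54 in enoxacin, a relative change of 0.659 (0.550 to 0.790). The minor arm miR-61-5p, with 12 and 22 reads, was called higher at 2.23 (1.06 to 4.95), a call that was lost under median-of-ratios and TMM scaling.

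mir-42, a member of the mir-35 family, had a ratio close to that of mir-43. miR-42-3p was at 282 RPM (3012 reads) with vehicle and at 222 RPM (1954 reads) with enoxacin, a ratio of 0.790 (0.746 to 0.836). The proportion of miR-43-3p to miR-42-3p was 0.356 in vehicle and 0.334 in enoxacin, a relative change of 0.938 (0.836 to 1.05) whose interval included 1. Along the cluster, ratios were thus 0.790 for miR-42-3p, 0.740 for miR-43-3p and 1.05 for miR-44-3p, whose reads may come in part from mir-45. miR-42-3p also changed relative to miR-44-3p, by 0.756 (0.672 to 0.850). The minor arms of these neighbours were rare: miR-42-5p counted 6 and 2 reads, and miR-44-5p 19 and 12 (0.769, 0.340 to 1.67). The antisense gene ZK930.12 overlaps mir-42 and mir-43 and not mir-44 in WBcel235, and its part in these values was not tested.

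On chromosome X the counts were too low to compare. miR-247-3p counted 8 reads with vehicle and 4 with enoxacin, and miR-247-5p had 2 and 1. The proportion of miR-797-5p to miR-247-3p had a relative change of 2.17 with an interval from 0.427 to 12.3.

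Differences between neighbouring hairpins were common in these libraries. Of 17 adjacent pairs on 1 strand less than 1000 nt apart with both most abundant arms compared, 10 (58.8%) had a relative change whose interval excluded 1. The median size of the log2 difference over the 17 was 0.28. The difference of mir-250 from mir-61 was 0.60, the fourth largest of the 17, that of mir-43 from mir-44 was 0.50, the sixth largest, and that of mir-43 from mir-42 was 0.09, ranking 14. Here too the reads of mir-44 may come in part from mir-45. The whole mir-44, mir-45, mir-61 and mir-247 family, with 2066 and 1812 reads, had a ratio of 1.07 (1.00 to 1.14), against 0.825 for the summed family of mir-2.

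**Figure D4:**
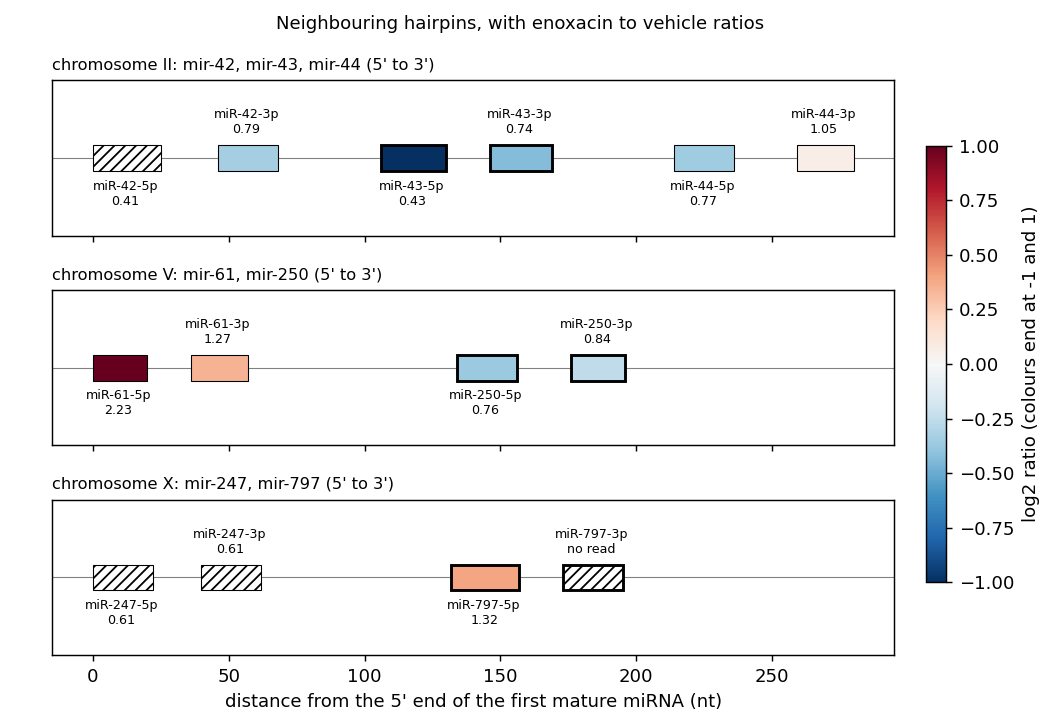
Arrangement of the hairpins beside mir-43, mir-250 and mir-797, drawn to scale as distance in nt from the 5′ end of the first mature miRNA, along the direction of transcription. Each box is a mature miRNA coloured by its log2 ratio (colours end at -1 and 1), with the ratio printed beside it, thick outlines mark family members and hatched boxes had fewer than 20 reads over both libraries. miR-43-3p (0.74) and miR-250-3p (0.84) lie beside miR-44-3p (1.05) and miR-61-3p (1.27).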

How the data were processed

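Per the labels' protocols, small RNA was enriched from 10 µg of TRIzol-extracted RNA per group and made into SOLiD libraries. The submitters' processing notes name Bowtie2, bedtools and the build ce10 but no versions, and in the sources used here nothing is given on strand or on multiply mapped reads. The authors deposited 1 table with raw read counts per mature locus, RPM values (count over 1 fixed total per library), the enoxacin to vehicle ratio and its log2. The vehicle sample, described as control worms, was matched to the control column. The deposited ratio and log2 equalled values recomputed with no pseudocount for loci with reads in both libraries; the log2 ratios printed here carry a pseudocount and so differ from the deposited ones.

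Ratios used exact conditional binomial (Clopper-Pearson) intervals at 95%, log2 ratios a pseudocount of 0.5 reads, and relative changes between 2 miRNAs the exact conditional odds ratio. A count of 0 allows up to 3 counts. Reads carry no molecular identifiers, so intervals and limits cover counting error only and may be too narrow. Named were all members, the arms of mir-42, mir-44 and mir-61, and the 2 loci nearest in log2 RPM to each member arm of at least 100 reads; mir-247 was added after its values were seen. The part of the naming rule on mature loci that share bases 2 to 8 with a member was not applied, because no mature sequence was used here, and the grouping by seed is background knowledge. The members and lists were chosen with earlier results of these data known. Annotation came from WBcel235 (Ensembl) by hairpin name, with no coordinates. Alternatives were 4 other scalings (TMM from edgeR 4.0.16 among them), minimums, thresholds, a pseudocount of 1, and other sums. Software was Python 3.11.15 (scipy 1.17.1, pandas 2.3.3, numpy 2.4.6) and R 4.3.3.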

Additional observations from a re-analysis of the deposited data

How the results depend on the processing

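No paired analysis was possible because the groups share only 1 replicate number, and with 1 library per group none could be left out. The log2 ratio of the summed family was -0.28 on library totals, -0.42 with median-of-ratios scaling, -0.41 with TMM and -0.34 without mir-2. All 7 alternatives gave a negative value, but most of them could hardly have given another sign. Each of the 4 scalings moved every log2 ratio down by the same shift. The sums over 3p arms and over the most abundant arms kept nearly all of the family's reads, 8889 and 8901 of 8950 with vehicle. Leaving out mir-2 removes most of the family's reads. The number of member arms called was 1 of 6 on library totals and 2 of 6 at the lower alternative threshold, where miR-43-3p was added. It was 0 of 3 with a minimum of 100 reads, which removes miR-43-5p, and 0 of 4 with arms summed per hairpin. Over all 152 compared loci, 20 were higher and 12 lower. At a threshold of 2, 12 of the 152 were higher and 9 lower, and at the lower one 35 were higher and 15 lower. A minimum of 100 reads left 93 loci, of which 15 were higher and 6 lower. With arms summed, 14 were higher and 7 lower of 103 compared. Of 30 values of single members under alternatives, 5 lay outside the counting interval of the main value. All 5 were of abundant arms under median-of-ratios or TMM scaling. None of the 30 changed sign, which the scalings could not bring about for a member already below 0. Depth limits miR-797 and the minor arms, whose intervals span several-fold.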
